A study of Mus musculus with 6 samples.

Results

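The genes of the Wnt signalling pathway were examined in ribosome-bound RNA of excitatory neurons of the adult mouse thalamus. Members were matched by symbol, under a rule set with earlier results of these data known. They were the Wnt ligands, the Frizzled receptors (Fzd), the co-receptors Lrp5 and Lrp6, and the Dishevelled genes (Dvl). Added to these were destruction complex genes (Axin1, Axin2, Apc, Gsk3a and Gsk3b), β-catenin (Ctnnb1), and secreted inhibitors of the Sfrp and Dkk families. The rule matched 49 of 32531 gene rows: 19 Wnt genes, 10 Frizzled genes, 2 co-receptor genes, 3 Dishevelled genes, 6 genes of the destruction complex and β-catenin, 4 Sfrp genes and 5 genes of the Dkk family. All 49 are protein-coding. The study used translating ribosome affinity purification (TRAP), in which a ribosomal protein fused to a fluorescent tag is made in 1 kind of cell, so that an antibody to the tag pulls down the ribosomes of that cell kind with the RNA on them. All mice were untreated adults of the line Slc17a6-EGFP/Rpl10a JX883, so both groups carry the same transgene, EGFP fused to the ribosomal protein L10a and driven, as the name of the line says, by Slc17a6. Slc17a6 encodes the vesicular glutamate transporter VGLUT2, which marks most excitatory neurons of the thalamus. The immunopurified group (IP, 3 libraries) is RNA from the anti-EGFP pull-down of dissected thalamus. The other group (Input, 3 libraries) is treated here as RNA of the dissected tissue before the pull-down, although the labels name ribosome-bound RNA as its molecule too. The labels name neither the animals behind each replicate nor their sex or exact age, so p-values measure the spread between libraries only.

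Wnt proteins are secreted, lipid-modified ligands that bind Frizzled receptors together with Lrp5 or Lrp6. In the absence of a ligand, a complex of Axin, Apc, Gsk3 and casein kinase 1 marks β-catenin for degradation, while Dishevelled, recruited by the bound receptor, blocks that complex so that β-catenin reaches the nucleus and acts with transcription factors of the TCF/LEF family. Thalamic neurons keep a high level of the family member Tcf7l2 in adult life, and Wnt7a and Wnt7b are ligands best known in the brain for their part in the growth of vessels and in synapse formation.

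Reads assigned to genes numbered 52068141 to 54421395 in IP and 44081149 to 47340321 in Input. Levels are given in CPM (a gene's reads scaled to a fixed library total) after TMM scaling, which adjusts for differences in RNA composition. At this depth 3 reads, the limit that a count of 0 allows, equal 0.0552 to 0.0681 CPM, a limit that covers counting error only. Input replicate 3 stood apart from the other Input libraries in the genes of neighbouring tissue: its summed CPM of 10 choroid plexus and ependymal markers was 1238, against 49.8 and 49.0 in Input replicates 1 and 2, and its level of the thalamic glutamatergic markers was, at the median, 0.486 times the mean of the other 2. By the same median measure, striatal, cortex and hippocampus, GABAergic neuron, and mural and fibroblast markers stood at 3.48, 1.82, 1.80 and 1.70. Astrocyte, endothelial and habenula markers stood at 0.731, 0.724 and 0.563. In IP the choroid plexus and ependymal sum was also highest in replicate 3, at 4.75, 6.13 and 47.9 CPM in replicates 1, 2 and 3. Markers of other cells were lower in IP: 15 of 15 oligodendrocyte, 14 of 15 astrocyte, 13 of 14 microglia and 9 of 14 endothelial markers passed the test in that direction. Of 19 thalamic glutamatergic markers, 7 were higher in IP and passed the test. Replicates 1, 2 and 3 were sequenced on lanes 3, 8 and 4 in both groups, and an effect of lane cannot be told apart from one of replicate.

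Of the 49 members, 40 had enough reads to be tested, among 16496 tested genes. A gene was called when the edgeR quasi-likelihood test gave a Benjamini-Hochberg adjusted p under 0.05 over all tested genes. In IP, 7 members fell and 1 rose. The 7 are 17.5% of the tested members, against 15.6% of all tested genes called lower, and the 1 is 2.5%, against 9.6% of all tested genes called higher. The share that fell was near the background. The genes that fell were the ligands Wnt7a and Wnt7b, the receptors Fzd2 and Fzd7, the co-receptor Lrp5, and Apc and Axin1 of the destruction complex, and the gene that rose was Gsk3a. The median log2 difference of the 40 tested members was 0.13, against -0.04 over all tested genes. Of the 7 genes that fell, Wnt7a, Fzd2 and Lrp5 passed the read filter through Input libraries alone, as did Sfrp5, so for these 4 a lower value in IP was a condition of being tested. Without Input replicate 3, 8 members fell (the same 7 and Fzd4) and Gsk3a rose, and the median of the members tested was -0.07. Of the 16496 genes, 2301 were then lower and 1637 higher. Wnt5a, Wnt7b, Fzd5, Fzd6, Dvl1, Dvl2, Axin2, Ctnnb1, Gsk3a, Sfrp2 and the untested Wnt11 share exonic bases with a gene on the other strand. Depending on the counting mode, reads on these bases may have been set aside as ambiguous or counted for either gene. Ambiguous reads made up 1.53% to 1.92% of records in IP and 7.37% to 13.2% in Input. Their part in the differences of these genes, Gsk3a among them, was not tested.

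Same-numbered IP and Input libraries varied together, with correlations of 0.271, 0.113 and 0.141 of their deviations from the group means for replicates 1, 2 and 3. When each IP library was compared with the Input library of the same number (the replicate block), 12 members were lower in IP (30% of those tested, against a background of 19.2%) and 4 were higher (10%, against 15.9%). The 12 include Wnt7a, Fzd2, Lrp5 and Sfrp5, which passed the read filter through Input libraries alone, so the 30% rests in part on them. How many such genes the background holds is not given here. The block added Wnt2b, Wnt5a, Fzd6, Lrp6 and Sfrp5, all lower in IP, and Wnt4, Wnt9a and Wnt10a, all higher, to the 8 members called without it. With library totals or upper-quartile factors in place of TMM and no block, 10 members fell (the same 7, Wnt5a, Lrp6 and Sfrp5) and none rose. The matching counts over all genes are not given here. Without reference to a test, all 3 IP values lay below all 3 Input values for 11 members (background 25% of tested genes), among them the 4 that passed the filter through Input alone, and above them for 5 members (background 19.9%). Leaving out 1 library, without the block, added calls for some members: Wnt4 (1.49, edgeR adjusted p 0.0289) and Wnt10a (3.62, 0.0254) without Input replicate 1, Fzd4 (-2.49, 0.0283) without Input replicate 3, and Fzd6 (-2.11, 0.0399), Lrp6 (-1.01, 0.0387) and Sfrp5 (-5.25, 0.0426) without IP replicate 1.

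**Figure D1:**
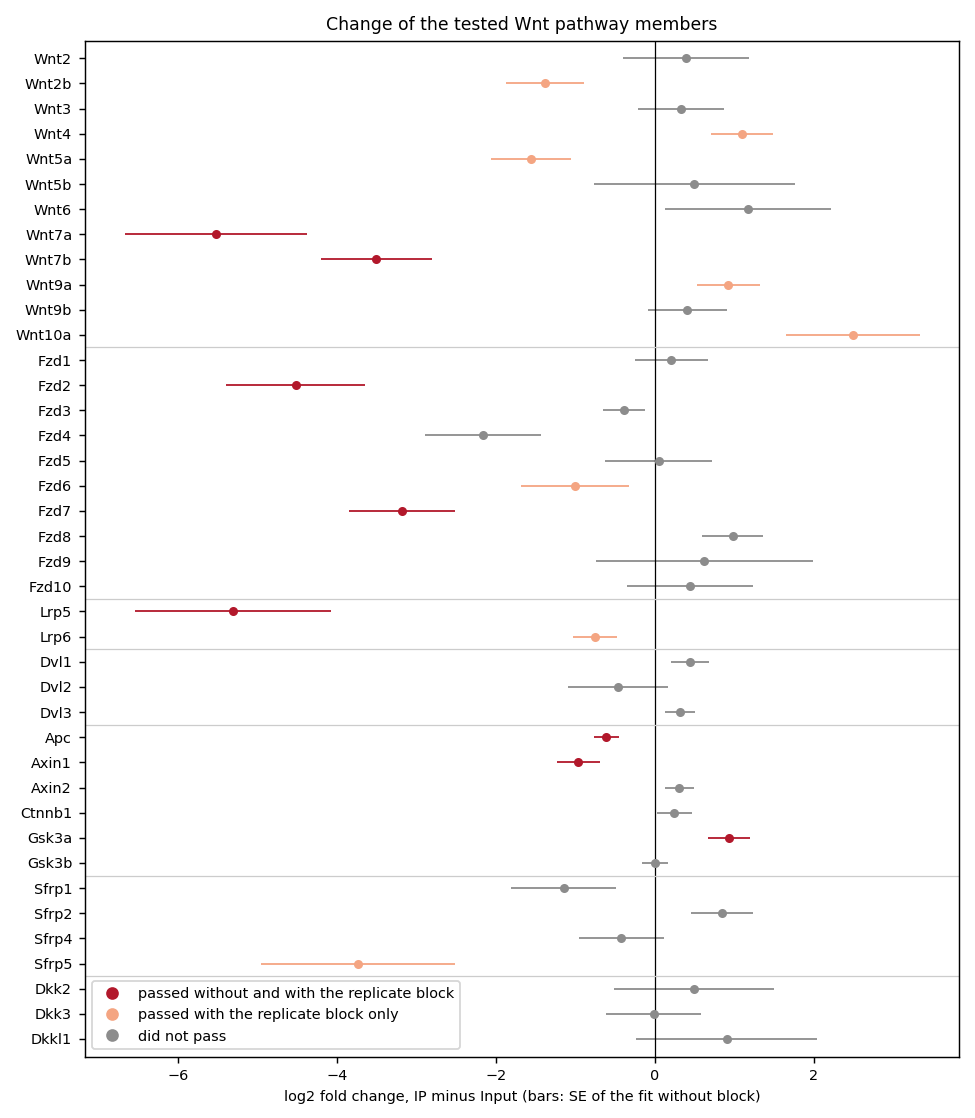
Log2 fold change of each tested member, IP minus Input, on the horizontal axis, with bars for the standard error of the fit without the block. Wnt7a, Lrp5 and Fzd2 lie farthest to the left, Gsk3a is the called member on the right, and most other members lie within 1 log2 unit of 0.

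Among the ligands, Wnt7a and Wnt7b gave the largest falls. Wnt7a (chr6:91363981-91411363, minus strand, mm10) had 0, 0.0376 and 0.184 CPM in IP replicates 1, 2 and 3 and 5.48, 3.40 and 1.84 CPM in Input replicates 1, 2 and 3, which are 0, 2 and 10 reads against 252, 166 and 81 reads. All IP values lay far below all Input values, and IP replicate 1 held no read. The mean was 0.0738 ± 0.0972 CPM (SD, n = 3) in IP and 3.57 ± 1.83 CPM in Input, a log2 fold change of -5.53 ± 1.15 (SE) with an edgeR adjusted p of 0.00987. The fold change was -7.34 when IP replicate 3 was left out. Wnt7b (chr15:85535437-85582473, minus strand) had 0.953, 0.527 and 0.460 CPM in IP and 5.02, 2.91 and 14.2 CPM in Input. Its groups did not overlap either, but Input replicate 3 was far above the other Input libraries. That library had high choroid plexus and ependymal, striatal, cortex and hippocampus, and GABAergic neuron markers. The part of those cells in the Wnt7b value was not tested. The mean was 0.647 ± 0.268 CPM in IP and 7.37 ± 5.99 CPM in Input, with a log2 fold change of -3.51 ± 0.70 and an edgeR adjusted p of 0.00854; without Input replicate 3 the fold change was -2.60, with an adjusted p of 0.0189. Both genes kept the call when any 1 of the 6 libraries was left out, though Wnt7a had passed the read filter through Input libraries alone.

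Wnt5a and Wnt2b, the first best known for signalling that does not run through β-catenin, were also lower in each IP library than in every Input library. Wnt5a (chr14:28504750-28527448) had 3.10, 1.30 and 2.87 CPM in IP and 7.72, 4.18 and 9.56 CPM in Input, a log2 fold change of -1.56 ± 0.51 with an edgeR adjusted p of 0.0524. Wnt2b (chr3:104945272-104961921) had 4.40, 1.67 and 5.79 CPM in IP and 9.79, 7.47 and 13.7 CPM in Input, a log2 fold change of -1.38 ± 0.49 with an adjusted p of 0.0727. Neither passed the test without the block, whereas with it edgeR gave -1.58 ± 0.43 with an adjusted p of 0.0154 for Wnt5a and -1.51 ± 0.38 with 0.0105 for Wnt2b. Replicate 2 had the lowest value of both genes in both groups.

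Wnt4 and Wnt9a, the ligands with the highest levels per length in IP, had higher means in IP than in Input. Wnt4 (chr4:137277489-137299726) had 53.7, 28.5 and 23.9 CPM in IP and 24.3, 14.1 and 11.1 CPM in Input. Replicate 1 was high and replicate 3 low in both groups, so the groups overlapped, but within each replicate IP exceeded Input by a nearly constant log2 ratio, 1.14, 1.01 and 1.11. The log2 fold change of 1.10 ± 0.39 had an edgeR adjusted p of 0.0712 without the block and 0.00233 with it. Wnt9a (chr11:59306928-59333552) had 46.0, 28.9 and 20.2 CPM in IP and 24.1, 16.4 and 9.61 CPM in Input, again highest in replicate 1 and lowest in replicate 3 of both groups. Its log2 ratios within replicates were 0.93, 0.82 and 1.08, and the edgeR adjusted p was 0.123 without the block and 0.00582 with it. Wnt10a was the ligand with the largest difference towards IP, from far fewer reads: 5.58, 1.84 and 2.81 CPM in IP and 1.26, 0.368 and 0.182 CPM in Input. Its groups did not overlap, and the log2 fold change of 2.49 ± 0.84 had an edgeR adjusted p of 0.0609 without the block and 0.0164 with it.

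The other 5 tested Wnt genes did not pass the test with or without the block. Wnt3 had 24.6, 15.5 and 10.3 CPM in IP and 23.4, 11.9 and 4.72 CPM in Input, with a log2 fold change of 0.33 ± 0.54. Its groups overlapped, and replicate 1 was the highest and replicate 3 the lowest in both, as for Wnt4 and Wnt9a. The log2 fold changes of Wnt9b, Wnt2, Wnt5b and Wnt6 were 0.41, 0.39, 0.50 and 1.18. The 7 Wnt genes that were not tested, Wnt1, Wnt3a, Wnt8a, Wnt8b, Wnt10b, Wnt11 and Wnt16, had no more than 33 reads in any library; Wnt3a had 1 read in all 6. Several Wnt genes lie side by side on the chromosome: Wnt3 and Wnt9b are 24.3 kb apart and Wnt3a and Wnt9a 16.2 kb apart on chromosome 11, Wnt6 and Wnt10a 6.19 kb apart on chromosome 1, and Wnt1 and Wnt10b 11.7 kb apart on chromosome 15. Neighbours could differ widely in level: Wnt9a was the leading ligand per length, beside Wnt3a with its single read.

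**Figure D2:**
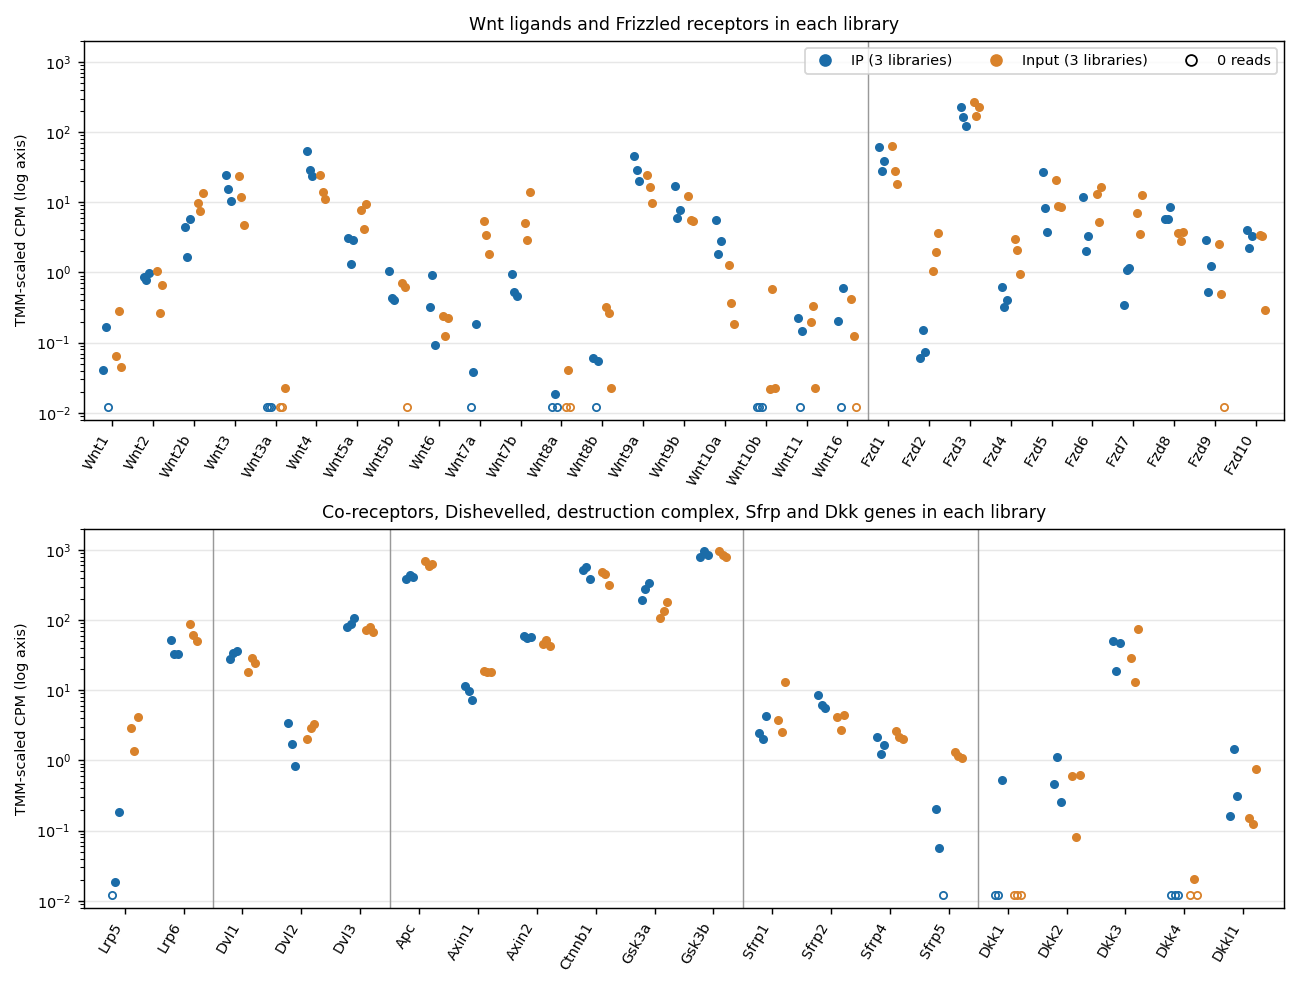
TMM-scaled CPM of each member in each library, on a log axis, with the Wnt and Frizzled genes in the upper panel and the other members in the lower panel. For Wnt7a, Wnt7b, Fzd2, Fzd7 and Lrp5 all IP points lie below all Input points, whereas for Wnt4 and Wnt9a the groups overlap.

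Divided by exonic length, so that genes can be compared, the IP levels of the ligands in CPM per kb were highest for Wnt9a (9.53 ± 3.94, SD, n = 3), Wnt4 (8.43 ± 3.83) and Wnt3 (5.47 ± 2.35), followed by Wnt9b (2.28 ± 1.34) and Wnt10a (1.38 ± 0.785). Every one of these overlapped its neighbour in the order over the 3 IP libraries. In Input the order per length began with Wnt9a (5.02 ± 2.18), Wnt3 (4.34 ± 3.06) and Wnt4 (3.94 ± 1.65), followed by Wnt2b (2.46 ± 0.754), Wnt9b (1.72 ± 0.862), Wnt7b (1.504 ± 1.22) and Wnt7a (1.13 ± 0.576), and these also overlapped their neighbours. Wnt4, Wnt9a, Wnt3 and Wnt9b together made up 88.6%, 89.9% and 81.4% of the summed Wnt level per length in IP replicates 1, 2 and 3, and 75.2%, 72.7% and 49.4% in Input. All IP shares were above all Input shares, and Input replicate 3 was the lowest. The share of Wnt7a and Wnt7b was 0.448%, 0.492% and 0.733% in IP and 8.86%, 9.04% and 20.7% in Input. That of Wnt5a and Wnt2b was 3.33%, 2.33% and 8.42% in IP and 10.7%, 12.6% and 26.8% in Input. The genes in these shares were grouped after their values were seen, so the shares are a description with no test.

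**Figure D3:**
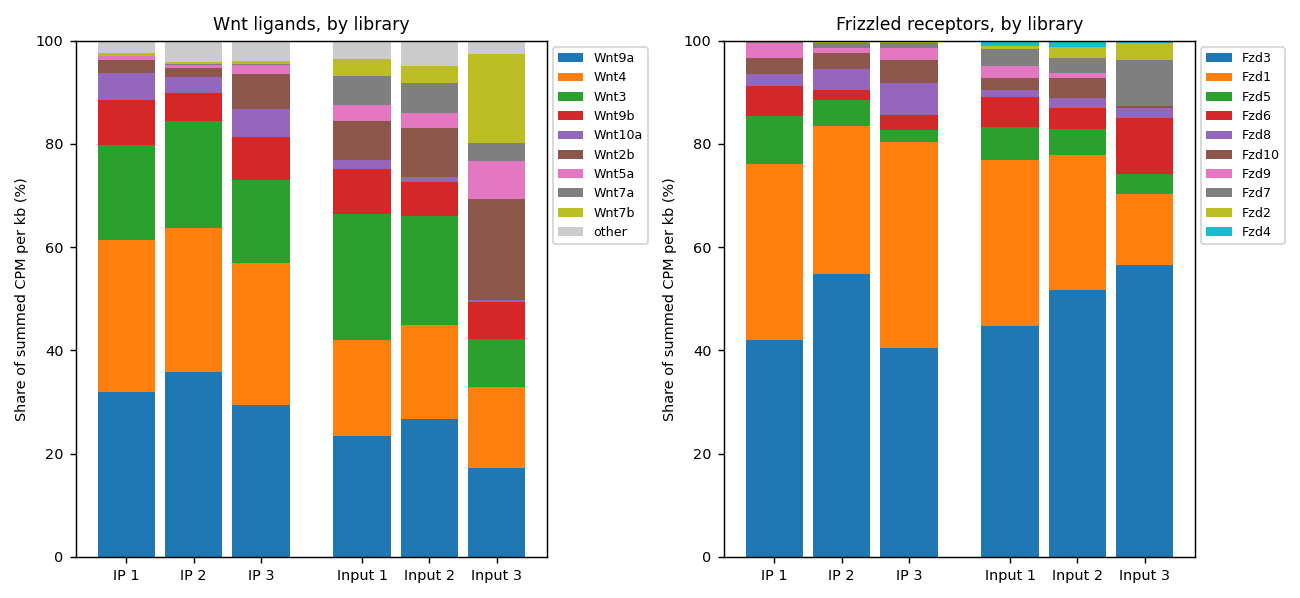
Share of the summed CPM per kb of the Wnt ligands and of the Frizzled receptors, in percent, in each of the 3 IP and 3 Input libraries. Wnt4, Wnt9a, Wnt3 and Wnt9b fill 81.4% to 89.9% of the ligand bar in the IP libraries and 49.4% to 75.2% in the Input libraries, and Input replicate 3 has the widest band for Wnt7a and Wnt7b.

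Among the receptors, Fzd2 and Fzd7 fell in IP, while the receptors with the highest levels, Fzd3 and Fzd1, did not pass the test. Fzd2 (chr11:102604396-102608058) had 0.0608, 0.150 and 0.0736 CPM in IP, from 3, 8 and 4 reads, and 1.07, 1.97 and 3.70 CPM in Input, from 49, 96 and 163 reads. The groups were far apart, and the log2 fold change was -4.52 ± 0.87 with an edgeR adjusted p of 0.00736. Fzd7 (chr1:59482424-59486955) had 0.345, 1.09 and 1.14 CPM in IP and 7.13, 3.54 and 12.8 CPM in Input. Its IP libraries all lay below its Input libraries, with means of 0.859 ± 0.446 and 7.83 ± 4.67 CPM, a log2 fold change of -3.18 ± 0.67 and an edgeR adjusted p of 0.0103. Both receptors kept the call when any 1 library was left out, though Fzd2 had passed the read filter through Input libraries alone.

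Fzd3, a receptor known for its part in axon guidance, had the highest level of the Frizzled genes, also per length: 227, 162 and 120.1 CPM in IP and 269.7, 171 and 227 CPM in Input. The groups overlapped, and the log2 fold change of -0.39 ± 0.27 had an edgeR adjusted p of 0.324. Fzd1 had 60.4, 27.6 and 39.0 CPM in IP and 63.5, 28.3 and 18.0 CPM in Input, highest in replicate 1 of both groups, with a log2 fold change of 0.21 ± 0.46. Per exonic kb, Fzd3 had 13.3 ± 4.21 CPM in IP and 17.4 ± 3.88 in Input, and Fzd1 10.1 ± 3.97 and 8.72 ± 5.69. Together they were the main receptors: Fzd3 made up 45.7% ± 7.95 (SD, n = 3) of the summed Frizzled level per length in IP and 51.0% ± 5.95 in Input, and Fzd1 34.2% and 24.0%. The shares of both overlapped between groups. Fzd2, Fzd4 and Fzd7 together made up 0.441%, 1.43% and 1.43% in IP and 4.93%, 6.30% and 12.7% in Input. These 3 are the Frizzled genes whose IP values all lay below their Input values. They were grouped after those values were seen, so their lower share in IP is a description with no test.

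Of the less abundant receptors, Fzd4, which with norrin acts in vessels of the retina and brain, had 0.629, 0.320 and 0.405 CPM in IP and 3.04, 2.07 and 0.954 CPM in Input. Its groups did not overlap, but the log2 fold change of -2.16 ± 0.73 missed the threshold, with an edgeR adjusted p of 0.0616 without the block and 0.0904 with it. Fzd6 had 12.05, 2.03 and 3.27 CPM in IP and 13.3, 5.24 and 16.3 CPM in Input; the groups overlapped, and it passed the test with the block, at -1.27 ± 0.43 with an edgeR adjusted p of 0.0428, but not without it when all libraries were used (adjusted p 0.318). Fzd8 was the receptor with the largest difference towards IP that did not overlap, at 5.86, 5.77 and 8.63 CPM in IP and 3.67, 2.85 and 3.72 CPM in Input, with a log2 fold change of 0.98 ± 0.38 and an edgeR adjusted p of 0.0949. Fzd5, Fzd9 and Fzd10 overlapped between groups, with log2 fold changes of 0.05, 0.63 and 0.44.

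Both co-receptors had lower means in IP, but only Lrp5 fell without the block. Lrp5 (chr19:3584828-3686564) had 0, 1 and 10 reads in IP, or 0, 0.0188 and 0.184 CPM, and 135, 66 and 183 reads in Input, or 2.94, 1.35 and 4.16 CPM. IP was far below Input in every library, though Lrp5 had passed the read filter through Input libraries alone. A lower value in IP was thus a condition of its being tested. The log2 fold change was -5.31 ± 1.23 with an edgeR adjusted p of 0.0153. The call ended without IP replicate 2 (-4.87, edgeR adjusted p 0.0544), and the fold change was -7.84 without IP replicate 3. Lrp6 (chr6:134446476-134566965) had 52.7, 32.5 and 32.7 CPM in IP and 87.0, 60.8 and 50.8 CPM in Input. The groups overlapped by IP replicate 1 alone, and within replicates the log2 ratios were -0.72, -0.90 and -0.64. Its log2 fold change of -0.75 ± 0.28 had an edgeR adjusted p of 0.0832 without the block and 0.00644 with it. Lrp5 made up 0%, 0.081% and 0.784% of the Lrp5 and Lrp6 level per length in IP, and 4.52%, 3.03% and 10.3% in Input.

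The Dishevelled genes, which carry the signal from the receptor into the cell, did not pass the test. Dvl3 had the highest mean CPM of the 3, not divided by length, with 79.6, 88.4 and 107 CPM in IP and 71.2, 80.3 and 68.4 CPM in Input. Its log2 fold change was 0.32 ± 0.19 (edgeR adjusted p 0.241). Those of Dvl1 and Dvl2 were 0.45 and -0.46, with adjusted p of 0.205 and 0.636.

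In the destruction complex, Apc and Axin1 fell, Gsk3a rose, and Axin2, Gsk3b and Ctnnb1 did not pass the test. Apc, the scaffold on which β-catenin is held, had 389, 436 and 417 CPM in IP and 687, 587 and 622 CPM in Input. Every IP library lay below every Input library with little spread, 414 ± 23.3 against 632 ± 50.4 CPM, and the log2 fold change was -0.61 ± 0.16 with an edgeR adjusted p of 0.0228. Axin1 (chr17:26138688-26195811), the scaffold that limits assembly of the complex, had 11.4, 9.67 and 7.15 CPM in IP and 18.6, 18.3 and 18.1 CPM in Input. Its Input values were nearly equal and all above the IP values, with a log2 fold change of -0.96 ± 0.27 and an edgeR adjusted p of 0.0303. Gsk3a (chr7:25228258-25237851), 1 of the 2 kinase genes of the complex, had 192, 279.9 and 338 CPM in IP and 107, 136 and 179.8 CPM in Input. The IP values all lay above the Input values, and replicate 3 was the highest in both groups. The log2 fold change was 0.94 ± 0.27 with an edgeR adjusted p of 0.0324 (0.000589 with the block). Exons of Gsk3a overlap those of 9130221H12Rik on the other strand, and the labels do not state whether counting used strand.

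The calls of Apc, Axin1 and Gsk3a each ended when 1 of several libraries was left out. The edgeR adjusted p of Apc was 0.0570, 0.0679 and 0.0801 without IP replicate 1, 2 or 3 and 0.0605 without Input replicate 2. For Axin1 it was 0.0885 and 0.105 without IP replicate 2 or 3, and 0.0700 and 0.0908 without Input replicate 1 or 2. For Gsk3a the same 4 omissions gave 0.0942, 0.114, 0.0698 and 0.103, and its adjusted p was 0.0502 with library totals and 0.0511 with upper-quartile scaling in place of TMM. With the replicate block, the adjusted p values were 0.00556 for Apc and 0.0154 for Axin1.

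Gsk3b, the other kinase gene, had the highest mean CPM of all members, not divided by length, with 791, 973 and 859 CPM in IP and 955, 852 and 804 CPM in Input. Its groups overlapped and its log2 fold change was 0.01 ± 0.16 (edgeR adjusted p 0.983), and the ratio of Gsk3a to Gsk3b per length was 0.823, 0.975 and 1.33 in IP and 0.381, 0.540 and 0.758 in Input, without overlap. Ctnnb1 had 515, 567 and 387 CPM in IP and 478, 447 and 312 CPM in Input, with a log2 fold change of 0.25 ± 0.22. The ratio of Apc to Ctnnb1 per length was 0.244, 0.248 and 0.347 in IP and 0.463, 0.424 and 0.643 in Input. Axin2, a gene that β-catenin signalling induces in many tissues, had 60.1, 56.4 and 56.9 CPM in IP and 45.0, 52.3 and 42.7 CPM in Input. All its IP values were above its Input values, but the log2 fold change of 0.31 ± 0.18 had an edgeR adjusted p of 0.246. Axin1 made up 21.4%, 19.8% and 15.3% of the Axin1 and Axin2 level per length in IP and 37.3%, 33.5% and 37.9% in Input, again without overlap.

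The promoter windows of members were searched for CTTTGAA and CTTTGAT, forms of the TCF/LEF motif, on both strands over 250 bases before to 50 bases after each start (RefSeq, GRCm38.p6). Of the 33 members with a window, 4 held a motif: Gsk3a, Wnt11, Wnt5b and Dkk1. That is 10.8% of their 37 windows, against 8.65% of all 32851 windows. The 250 bases before the start are shown, 5′ to 3′ on the strand of the gene, for Gsk3a, the member that rose, at chr7:25237852-25238101 (minus strand), Fzd7, a receptor that fell, at chr1:59481897-59482146 (plus strand), and Axin2, the textbook target, at chr11:108920099-108920348 (plus strand). Capitals mark the 1 match, CTTTGAA on the reverse strand.
Gsk3a: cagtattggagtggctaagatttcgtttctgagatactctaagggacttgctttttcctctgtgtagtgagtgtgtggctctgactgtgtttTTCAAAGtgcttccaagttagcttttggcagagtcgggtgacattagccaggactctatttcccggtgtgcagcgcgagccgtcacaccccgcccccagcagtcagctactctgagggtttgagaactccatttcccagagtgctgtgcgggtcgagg
Fzd7: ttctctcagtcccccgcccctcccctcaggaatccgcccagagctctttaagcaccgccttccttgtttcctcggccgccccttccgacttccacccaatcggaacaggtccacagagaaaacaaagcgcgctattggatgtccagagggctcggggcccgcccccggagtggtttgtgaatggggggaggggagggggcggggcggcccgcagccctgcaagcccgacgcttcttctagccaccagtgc
Axin2: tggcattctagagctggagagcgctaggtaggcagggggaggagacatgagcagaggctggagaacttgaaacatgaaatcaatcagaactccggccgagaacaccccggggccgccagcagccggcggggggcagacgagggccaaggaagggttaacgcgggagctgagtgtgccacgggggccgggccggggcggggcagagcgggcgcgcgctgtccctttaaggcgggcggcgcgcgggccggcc
The match in Gsk3a begins 158 bases before the start. The Fzd7 and Axin2 windows hold no match to these letters, and other forms of the motif were not searched. GC content was 52.0% for Gsk3a, 65.2% for Fzd7 and 69.2% for Axin2, against a median of 52.4% over all windows, and the number of CpG dinucleotides was 9, 17 and 24, against a median of 6.

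Of the secreted inhibitors, none passed the test without the block. Sfrp proteins bind Wnt ligands outside the cell. Sfrp5 had 10, 3 and 0 reads in IP and 60, 56 and 47 reads in Input. No value overlapped, though Sfrp5 had passed the read filter through Input libraries alone. The log2 fold change of -3.74 ± 1.22 had an edgeR adjusted p of 0.0530 without the block and 0.0394 with it. Sfrp2 had 8.52, 6.21 and 5.66 CPM in IP and 4.13, 2.70 and 4.496 CPM in Input, all IP values above all Input values, with a log2 fold change of 0.85 ± 0.39 and an edgeR adjusted p of 0.150. Its share of the summed Sfrp level per length was 76.9%, 78.5% and 65.5% in IP and 47.0%, 42.5% and 33.9% in Input. Sfrp1 had 2.49, 2.03 and 4.30 CPM in IP and 3.74, 2.54 and 13.3 CPM in Input. Its log2 fold change of -1.14 ± 0.66 was -0.08 without Input replicate 3, the highest library by far. That of Sfrp4 was -0.42.

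Dkk1, Dkk2 and Dkk4 block Lrp5 and Lrp6, while Dkk3 is a divergent family member. Dkk3 had the highest mean CPM of the family, with 50.6, 18.8 and 47.2 CPM in IP and 28.8, 13.1 and 75.9 CPM in Input. The groups overlapped; IP was above Input in replicates 1 and 2 and below it in replicate 3, and the log2 fold change was -0.02 ± 0.59 (edgeR adjusted p 0.989). All 29 reads of Dkk1 were in IP replicate 3, and Dkk4 had 1 read in all. Dkk2 and Dkkl1 had log2 fold changes of 0.49 and 0.91, which did not pass the test.

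Of 90 further genes of the pathway, listed by role, 84 were tested: 13 rose in IP (15.5%, against a background of 9.6%) and 14 fell (16.7%, against 15.6%), with a median log2 difference of -0.12. With the replicate block, 17 were higher (20.2%, against 15.9%) and 18 lower (21.4%, against 19.2%). The list was drawn up with earlier results of these data known, and a gene may stand in more than 1 of the classes that follow. None of 3 genes of Wnt secretion and none of 5 further secreted inhibitors passed the test. Of 15 genes for co-receptors and surface partners, 3 fell (20%, against 15.6% of all tested genes) and none rose. With the block 5 were lower, Ryk (edgeR adjusted p 0.0491) and Kremen1 (0.0482) being added to the 3. The 3 included Lrp4, the co-receptor for agrin (log2 fold change -2.49 ± 0.59, edgeR adjusted p 0.0166), and Reck, which acts with Wnt7a and Wnt7b in vessels (-2.09 ± 0.51, 0.0188). The third, Musk, named after its values were seen, had a mean under 1 CPM in both groups and passed the read filter through Input alone (-5.09 ± 1.39, edgeR adjusted p 0.0279, and up to 0.0874 without 1 library). The call of Lrp4 ended without IP replicate 2 or 3 (adjusted p up to 0.0561), and that of Reck without IP replicate 1 or 2 or Input replicate 1 (up to 0.0600).

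Of 8 genes of R-spondin signalling, which raises Wnt responses by sparing Frizzled receptors from degradation, Rspo1 rose and Lgr6 fell (12.5% in each direction, against 9.6% higher and 15.6% lower over all genes). With the block, Rspo3 was also higher (1.66 ± 0.36, edgeR adjusted p 0.00505) and Rnf43 also lower (-1.44 ± 0.48, 0.0378). The ligand Rspo1 had 16.4, 20.8 and 25.6 CPM in IP and 4.78, 11.1 and 7.13 CPM in Input. All IP values were above all Input values, with a log2 fold change of 1.45 ± 0.36 and an edgeR adjusted p of 0.0192. Without 1 library its adjusted p reached 0.0725. Lgr6, an R-spondin receptor, had a log2 fold change of -2.42 ± 0.70 (edgeR adjusted p 0.0343, and up to 0.168 without 1 library).

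Of 24 other cytoplasmic genes, 9 rose (37.5%, against 9.6% of all genes) and 4 fell (16.7%, against 15.6%); with the block the counts were 11 and 4. Csnk1e, a casein kinase 1 gene, had 218, 226 and 216 CPM in IP and 95.9, 99.1 and 81.1 CPM in Input. The groups were well apart, with a log2 fold change of 1.26 ± 0.17 and an edgeR adjusted p of 0.00162. Nkd1, a Dishevelled-binding antagonist and a known target of the pathway, had 78.5, 109.9 and 70.1 CPM in IP and 31.7, 38.9 and 25.1 CPM in Input, again without overlap (1.43 ± 0.25, edgeR adjusted p 0.00519). Its relative Nkd2 rose as well (log2 fold change 1.87 ± 0.54, edgeR adjusted p 0.0349, and up to 0.0994 without 1 library). The genes with the largest falls were the Dishevelled-binding gene Ccdc88c (log2 fold change -2.19 ± 0.53), the phosphatase subunit gene Ppp2r5a (-1.20 ± 0.30) and Tnks (-0.87 ± 0.24), a tankyrase that marks Axin for degradation. The edgeR adjusted p of these 3 was 0.0183, 0.0202 and 0.0287, and without 1 library reached 0.0699, 0.0777 and 0.102.

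Among the TCF/LEF genes, whose products bind DNA with β-catenin, Tcf7l2 rose while Tcf7 and Tcf7l1 fell. Tcf7l2, which is also among the thalamic markers, had 2028, 2722 and 2205 CPM in IP and 1110.1, 1341 and 685 CPM in Input. All IP values were above all Input values, with a log2 fold change of 1.15 ± 0.25 and an edgeR adjusted p of 0.0127 (0.0501 without IP replicate 2). Tcf7 had 1.01, 0.639 and 0.956 CPM in IP and 3.89, 4.91 and 9.95 CPM in Input, a log2 fold change of -2.84 ± 0.54 (edgeR adjusted p 0.00723). Tcf7l1 had 0.710, 0.207 and 0.331 CPM in IP and 3.41, 4.03 and 4.95 CPM in Input, a log2 fold change of -3.31 ± 0.65 (edgeR adjusted p 0.00817). Neither of these overlapped between groups. Lef1, another thalamic marker, overlapped, with 70.8, 108 and 103 CPM in IP and 80.2, 101 and 45.1 CPM in Input (0.32 ± 0.30, edgeR adjusted p 0.490). Tcf7l2 made up 96.4%, 96.1% and 95.4% of the family's summed level per length in IP and 91.7%, 91.4% and 88.5% in Input. Of 17 TCF/LEF and nuclear genes, 3 rose (17.6%, against 9.6% of all genes) and 2 fell (11.8%, against 15.6%), or 4 and 3 with the block. The other 2 that rose were the corepressor genes Ctbp1 (1.04 ± 0.21, edgeR adjusted p 0.00933) and Aes (0.72 ± 0.21, 0.0380, up to 0.129 without 1 library).

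Of 10 genes of planar cell polarity, 2 fell (20%, against 15.6% of all genes) and none rose, with and without the block. Daam2, a formin that acts downstream of Dishevelled, had 2.86, 4.78 and 9.86 CPM in IP and 69.5, 85.2 and 105 CPM in Input. The groups were far apart, with a log2 fold change of -3.89 ± 0.45 and an edgeR adjusted p of 0.000873. Invs fell as well (log2 fold change -1.11 ± 0.33, edgeR adjusted p 0.0372), but the call ended when any 1 library was left out. Of 10 targets and feedback genes, Nkd1 rose, as above, while Tcf7, Tnfrsf19 (-2.16 ± 0.39, edgeR adjusted p 0.00577) and Ccnd1, the cyclin D1 gene (-1.26 ± 0.40, 0.04999, up to 0.137 without 1 library), fell. That is 10% higher and 30% lower, against 9.6% and 15.6% of all genes, and with the block 4 were lower. Csnk1e, Nkd1, Tcf7, Tcf7l1, Ctbp1, Tnfrsf19 and Daam2 kept the call when any 1 library was left out.

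**Figure D4:**
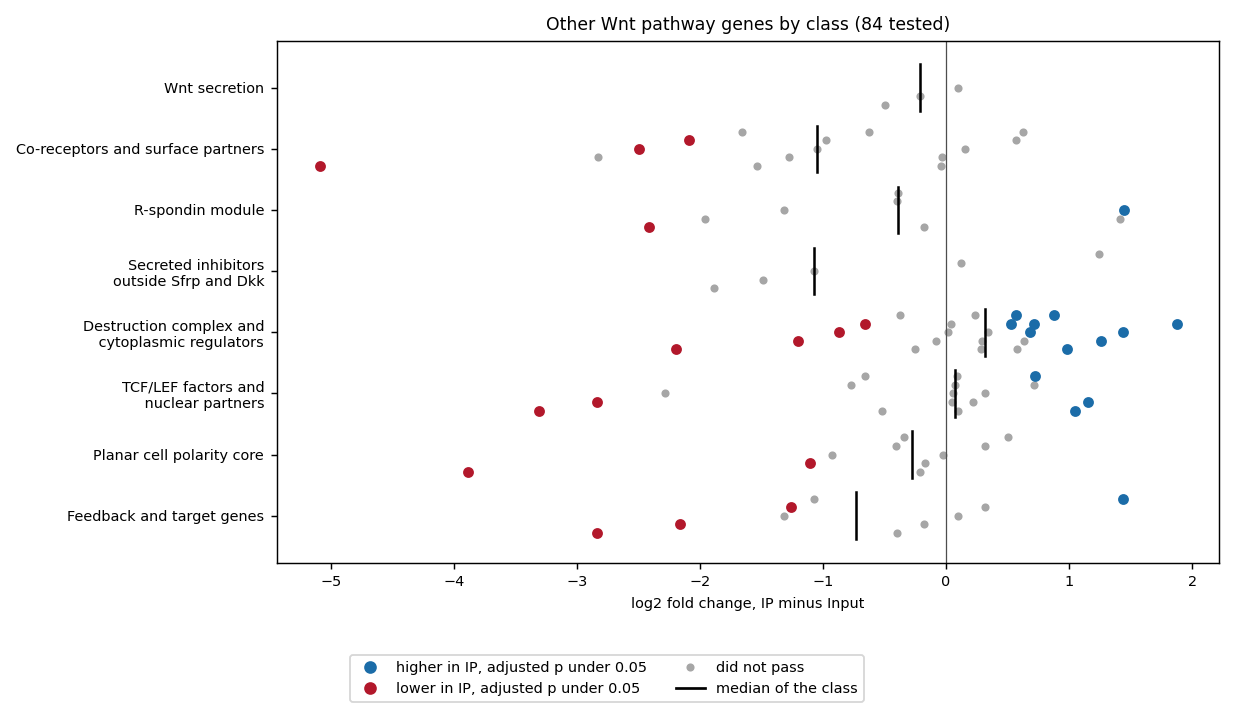
Log2 fold change, IP minus Input, of the 84 tested genes of the wider pathway, in 1 row per class, with called genes marked. Daam2, Tcf7l1 and Tcf7 lie far to the left and Nkd2, Rspo1, Nkd1, Csnk1e and Tcf7l2 to the right.

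Markers of most other cell types moved in the same direction as the members that fell. Summed over the list, 15 oligodendrocyte markers had 390.1 to 443 CPM in IP and 4619 to 6250.1 CPM in Input, their log2 fold changes had a median of -4.29, and none of the 15 was at 0 in all IP libraries. The 15 astrocyte markers had 477 to 926 CPM in IP and 2038 to 3791 CPM in Input, with a median of -4.10 and none at 0. The 14 microglia markers had 7.39 to 11.5 CPM in IP and 89.3 to 136 CPM in Input (median -4.49), with Trem2 at 0 reads in every IP library, and the 14 endothelial markers had a median of -3.01, with Tie1 at 0. Of 12 GABAergic neuron markers 7 were lower (11 with the block), with a median of -3.17 and 139 to 307 CPM in IP against 1075 to 1642 CPM in Input. The medians of the oligodendrocyte precursor, mural and fibroblast, choroid plexus and ependymal, and habenula lists were -4.20, -3.36, -3.19 and -2.70. In these lists 8 of 10, 7 of 13, 4 of 8 and 10 of 15 tested markers were called lower. Of the precursor markers 2 had a positive fold change, and 1 habenula marker was called higher. Without Input replicate 3 the choroid plexus and ependymal median was -2.22. Not every list was low: cortex and hippocampus markers had a median of -0.15, with none of 15 called without the block, and striatal markers one of -0.54. Of 15 striatal markers, 2 were called higher and 1 lower. Without Input replicate 3 the cortex and hippocampus median was 0.29 and the striatal median 0.11. Set beside these medians, the log2 fold changes were -5.53 for Wnt7a, -5.31 for Lrp5, -4.52 for Fzd2, -3.51 for Wnt7b and -3.18 for Fzd7, and smaller for Axin1 (-0.96) and Apc (-0.61). The part of these cells in the falls was not tested, and such libraries do not show which cells the reads of a gene came from. For the rise of Gsk3a (0.94), the 19 thalamic glutamatergic markers had a median of 0.87 and the 16 pan-neuronal markers one of 0.58, and their part was not tested either.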

How the data were processed

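Raw counts of reads per gene, deposited by the authors, came as a separate table for each of the 6 libraries. The submitters' processing notes name mm10 as the build, STAR 2.0.0e as the aligner and HTSeq as the counter. The annotation, mode and strandedness used in counting were not given in the labels. Rows that summarise unassigned reads entered neither library sizes nor tests, and ambiguous reads made up 1.53% to 1.92% of records in IP and 7.37% to 13.2% in Input. Of the 49 members, 11 share exonic bases with another gene, and reads there may have been set aside as ambiguous or counted for either gene.

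The members and gene lists were chosen with earlier results of these data known, and the shares and ratios per length after values were seen. IP and Input were compared with edgeR 4.0.16 (R 4.3.3) by its quasi-likelihood test, after filterByExpr (at least 0.2012 CPM in 3 libraries) and TMM scaling, with Benjamini-Hochberg adjustment over 16496 genes. The script was tested on simulated data. Alternatives were the replicate block, DESeq2 1.42.0, limma-voom (limma 3.58.1), other scalings and filters, and leaving out each library or replicate. Replicate numbers were taken as pairs because all 3 correlations of deviations were above 0.1. No library pair was identical. Members described with every library's value were those called, with a mean of at least 1 CPM in a group, and the most abundant of each role; others that differed only with the block or did not overlap were chosen after their values were seen. Exonic lengths came from GENCODE M21 for mm10.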

Additional observations from a re-analysis of the deposited data

How the results depend on the processing

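With 1 library left out, 4 to 9 members were lower in IP (7 with all) and 0 to 2 higher (1 with all); without both libraries of a replicate the ranges were 0 to 6 and 0 to 2, and without replicate 2 no member was called. For the other pathway genes (13 higher, 14 lower), the ranges were 3 to 12 higher and 4 to 12 lower without 1 library, and 0 to 11 and 1 to 12 without a replicate. For all genes (1583 higher, 2566 lower), they were 731 to 1640 and 1634 to 2598, and 83 to 1440 and 651 to 2436.

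Members called higher numbered 0 with library totals, 0 with upper-quartile scaling, 4 with DESeq2, 2 with limma-voom and 2 with no filter. Members called lower numbered 12 with DESeq2. With the replicate block, 4 members were higher and 12 lower, and of all genes 2624 were higher and 3163 lower. With the replicate block and without replicate 3, an alternative added after seeing the data, 6 members were higher and 12 lower. The count of all genes higher in IP was 3026, and 23 other pathway genes were lower. The count of all genes lower is not given here. Dkk3, at -0.02 in the main fit and 0.22 with the block on all libraries, was then called higher. Its log2 fold change was 0.68 with an edgeR adjusted p of 0.0132. The cause of these changes was not tested. Wnt7a, Wnt7b, Fzd2 and Fzd7 were called in all 6 fits without 1 library. Wnt7a and Fzd2 had passed the read filter through Input libraries alone, so for them the repeated call is no separate support. Genes with a few reads in IP are limited by depth.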
